A study of Mus musculus with 42 samples.

Results

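Lymph nodes that drain the ankle joints were the source of all cells compared here: Foxp3+ regulatory T cells (Treg) and CD4+ conventional T cells (Tconv). The comparison used all 12 libraries of inguinal plus popliteal nodes among the 42 libraries of the series: 6 Treg libraries against 6 Tconv libraries. Each cell type had 3 libraries from TNFdARE mice and 3 from WT littermates, 1 from each of experiments A, B and C. TNFdARE mice carry a Tnf allele without its AU-rich element, which stabilises the Tnf mRNA, and are a model of joint and gut inflammation. Mice of both genotypes carried the DEREG transgene, in which Foxp3 control sequences drive a diphtheria toxin receptor fused to GFP. Cells were sorted on that GFP reporter, so Foxp3 expression itself was part of the selection. Age and sex, and whether a library came from 1 animal or from pooled animals, are not given in the sources used here. The p-values therefore measure the spread between libraries of the 3 experiments.

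The joint-node Treg libraries held 18749206 to 22658522 counts and the Tconv libraries 18261064 to 24847946. Genes with at least 1 count numbered 18982 to 19801 in Treg. In Tconv the TNFdARE library of experiment B had 29599 and the WT library of experiment C had 31454, while the other 4 had 17835 to 18172. The part of these 2 libraries in the results was not tested other than by leaving both out, and lists whose counts then changed by more than 1 gene are named below. Levels are CPM, counts scaled to a common normalised library size, and a difference is the fitted log2 ratio of Treg to Tconv with its standard error. The main difference averaged both genotypes with equal weight, and the WT difference used the 3 Treg and 3 Tconv WT libraries of the same fit. A gene passed at an adjusted p-value below 0.05.

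Treg restrain other lymphocytes and depend on the transcription factor Foxp3. They consume interleukin-2 through a high-affinity receptor whose alpha chain is CD25, activate latent TGF-beta, turn extracellular ATP into adenosine, and block costimulation through CTLA-4. In lymph nodes a resting Treg pool that recirculates like naive T cells lies beside an effector pool that divides and carries receptors for inflamed tissue. Tconv of the same nodes are mostly naive and central memory helper cells.

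Cell type was the main axis of variation. Of 14691 genes tested over both genotypes, 3242 (22.1%) were higher in Treg and 3109 (21.2%) lower. The higher side held more of the large differences: 1524 genes were at least 2-fold higher and 473 at least 2-fold lower. Within WT alone 2502 genes (17%) were higher and 2165 (14.7%) lower, and within TNFdARE 2230 (15.2%) were higher and 2093 (14.2%) lower. The WT and TNFdARE contrasts share no library, and 3291 genes passed in both with the same direction against 3 with opposite directions. These were 70.52% of the WT calls and 76.13% of the TNFdARE calls. For 1844 genes (12.6%) all 6 Treg libraries lay above all 6 Tconv libraries, and for 1652 (11.2%) all lay below. Across genes, log2 CPM correlated at 0.918 to 0.956 between a Treg and a Tconv library and at 0.965 to 0.985 between replicates. In a fit over all 42 libraries, with other tissues sharing 1 estimate of spread, 2980 genes passed over both genotypes. In WT 1582 then passed with 63.9% of them higher, against 4667 with 53.6% higher, and in TNFdARE 1388 with 65.8% higher, against 4323 with 51.6%. Among the genes named below, the calls over both genotypes of Aurka, Cdc20, Mvk, Trdc, Ifit1, Lair1, Smad4 and Stat5b were lost in that fit (adjusted p = 0.423, 0.094, 0.378, 0.448, 0.41, 0.138, 0.0757 and 0.063). The WT calls of Tnf and Tnfrsf1a were lost too (adjusted p = 0.173 and 0.303). The first principal component held 51% of the variance and separated the cell types. The median difference over all tested genes was 0.0019.

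**Figure D1:**
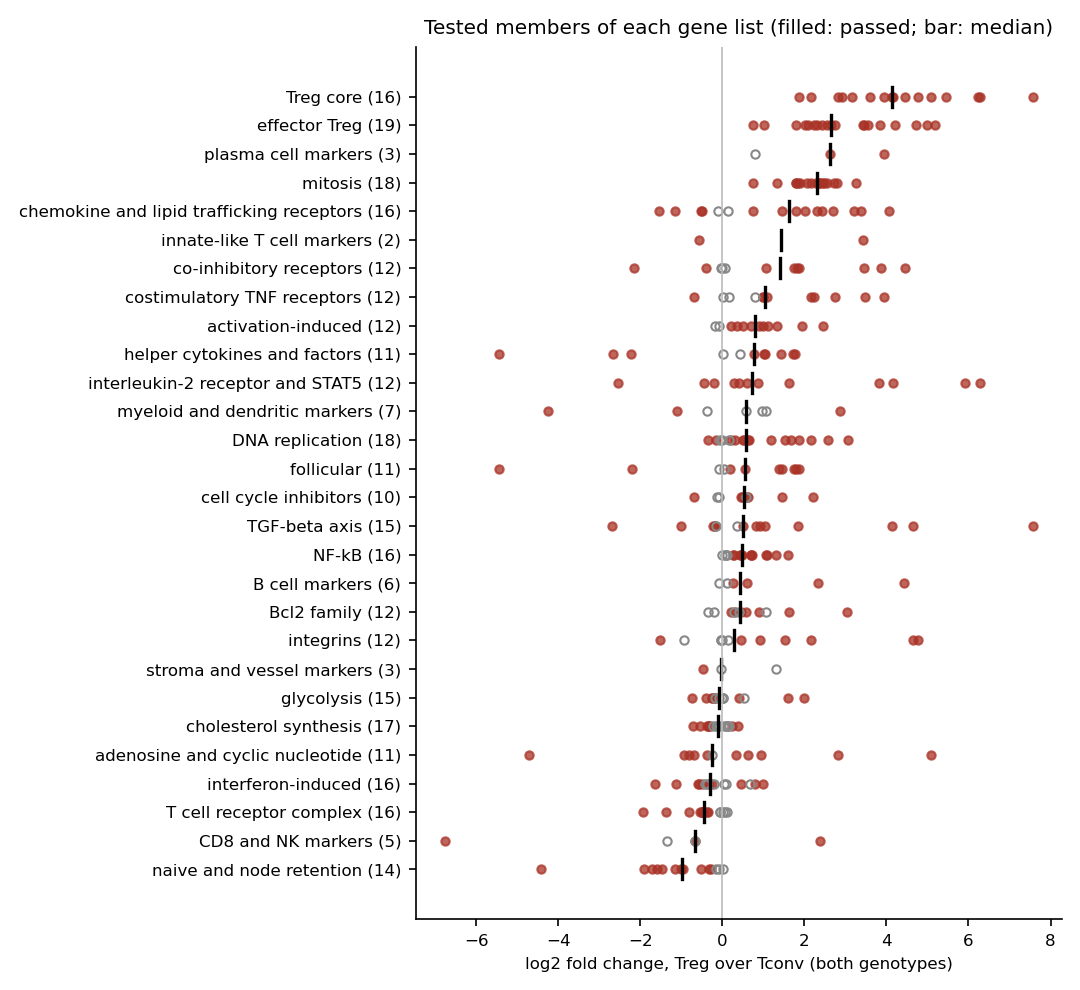
Log2 ratio of Treg to Tconv (x axis) for the tested members of each gene list (y axis, number tested in brackets). Filled points passed the test over both genotypes, open points did not, and bars are medians, from 4.15 for the Treg core list to -0.99 for the naive list.

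The Treg core list held 16 genes, and each was higher in Treg over both genotypes and in WT alone, with a median difference of 4.15 against 0.0019 for all genes. In each of the 16 the libraries of the cell types did not overlap. Foxp3, the master transcription factor of Treg and the gene behind the sort, ran at 1126 to 1317 CPM (median 1172) in Treg and 6.79 to 41.4 CPM (median 19) in Tconv. Its difference was 6.22 ± 0.09, adjusted p = 1.57e-15, a check of the labels and not a finding. Il2ra, which encodes CD25, ran at 779 to 1129.7 CPM (median 919) in Treg and 7.98 to 18.2 CPM (median 12.6) in Tconv, a 77.1-fold difference (6.27 ± 0.08, adjusted p = 4.46e-16). Lrrc32, which encodes the surface anchor GARP for latent TGF-beta, ran at 444 to 556 CPM (median 482) in Treg and 0.467 to 8.28 CPM (median 3.35) in Tconv. Its difference of 7.56 ± 0.15, adjusted p = 6.12e-14 compares with 9.07 ± 0.23, adjusted p = 2.19e-12 in WT. Ikzf2, the transcription factor Helios, ran at 351 to 613 CPM (median 528) in Treg and 2.72 to 28.4 CPM (median 14.6) in Tconv (5.44 ± 0.21, adjusted p = 5.87e-11). Itgae, the alpha E integrin that binds E-cadherin, ran at 284 to 905 CPM (median 505) in Treg and 7.35 to 52.9 CPM (median 16.3) in Tconv (4.76 ± 0.16, adjusted p = 1.48e-11). Within Treg its libraries divided by genotype, with means of 293 ± 9.94 CPM in WT and 773 ± 114 in TNFdARE (SD, n = 3 each), a contrast not tested here. The smallest differences of the list were Izumo1r, a folate receptor family protein on Treg (1.87 ± 0.06, adjusted p = 1.35e-11), and Tnfrsf18, the receptor GITR (2.16 ± 0.05, adjusted p = 3.88e-13).

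**Figure D2:**
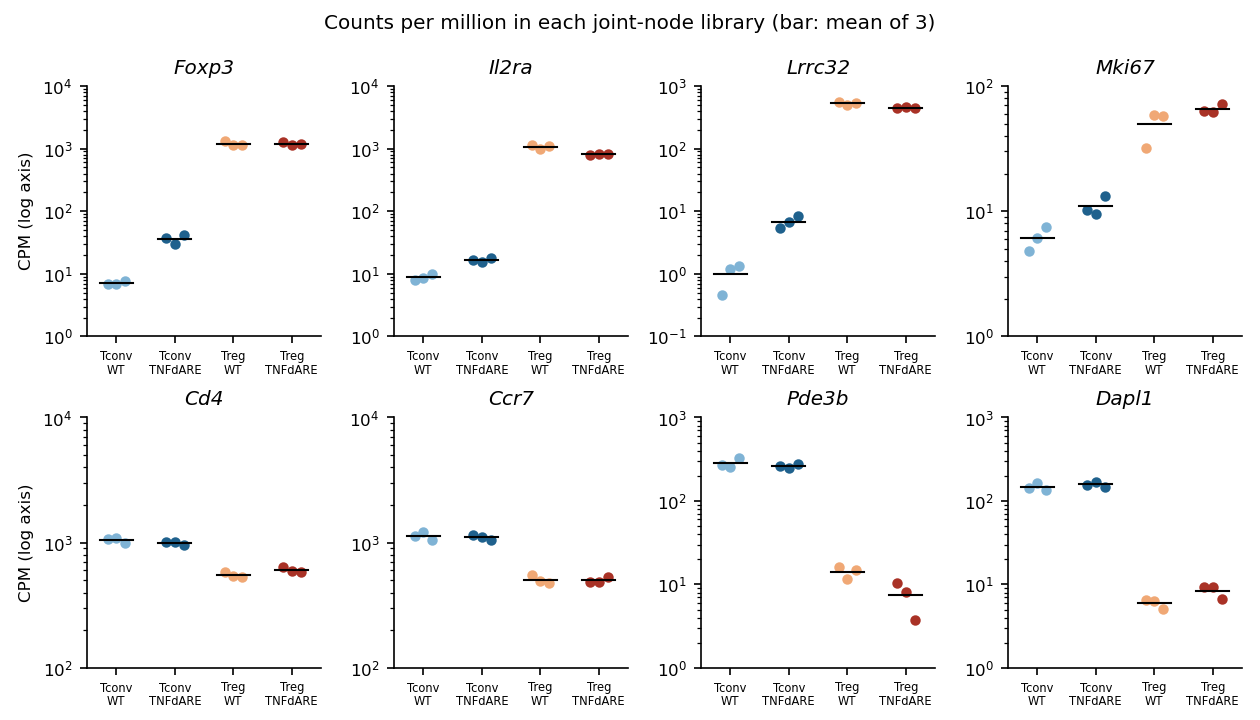
CPM (log axis) of 8 genes in the 12 joint-node libraries, grouped by cell type and genotype. Points are libraries and bars are means of 3. Foxp3, Il2ra, Lrrc32 and Mki67 lay higher in every Treg library than in any Tconv library, and Cd4, Ccr7, Pde3b and Dapl1 lay lower.

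The interleukin-2 pathway list held 12 genes, of which 9 were higher and 3 lower in Treg (median difference 0.73). The receptor chains divided. Il2ra and Il2rb, which encode the alpha and beta chains, were far higher, and Il2rb ran at 1382 to 1656 CPM (median 1518) in Treg and 58.9 to 122 CPM (median 86.4) in Tconv (4.16 ± 0.08, adjusted p = 5.58e-14). Il2rg, the shared gamma chain, was slightly lower (-0.21 ± 0.06, adjusted p = 0.0108), with overlapping libraries, and did not pass in WT (adjusted p = 0.106, or 0.0146 with the experiment letter as a block). Transcripts of the ligand, Il2, were few in both cell types, at 0.298 to 0.578 CPM (median 0.420) in Treg and 2.03 to 3.27 CPM (median 2.61) in Tconv, yet no Treg library reached the lowest Tconv library (-2.56 ± 0.28, adjusted p = 3.5e-06). Downstream, the STAT5 target genes that feed back on cytokine signalling were higher. Socs2 ran at 95.4 to 127 CPM (median 117) in Treg and 0.679 to 4.16 CPM (median 1.43) in Tconv, a 60.8-fold difference (5.93 ± 0.27, adjusted p = 2.96e-10), and Cish at 249 to 311 CPM (median 264) in Treg and 10.9 to 27.3 CPM (median 21.9) in Tconv (3.83 ± 0.11, adjusted p = 2.57e-12). Socs1 differed by 1.63 ± 0.06, adjusted p = 1.33e-11. Of the kinases, Jak3, which pairs with the gamma chain, was higher (0.61 ± 0.06, adjusted p = 5.21e-07) and Jak1 was lower (-0.45 ± 0.05, adjusted p = 3.94e-06). Both STAT5 genes were higher by less than 1 log2 unit, Stat5a by 0.86 ± 0.06 and Stat5b by 0.28 ± 0.05. Exons of Stat5a overlap those of Stat3 on the opposite strand, and unstranded reads there cannot be assigned.

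Effector Treg genes were higher throughout. In bulk RNA, here and below, more or fewer cells of a type and more or less RNA per cell cannot be told apart. All 19 tested of 20 passed over both genotypes and in WT (median difference 2.65), and 18 of them did not overlap between cell types. The gene not tested was Il12a, with at most 0.199 CPM in any Treg library. Klrg1, an inhibitory lectin receptor of differentiated lymphocytes, ran at 30.9 to 66.3 CPM (median 43.2) in Treg and 0.297 to 6.02 CPM (median 2.32) in Tconv (4.99 ± 0.13, adjusted p = 8.22e-13). Il1rl1, the interleukin-33 receptor ST2 of tissue Treg, ran at 36.8 to 95.0 CPM (median 62.0) in Treg and 0 to 8.19 CPM (median 2.17) in Tconv (5.18 ± 0.32, adjusted p = 6.76e-09). Fgl2, a secreted fibrinogen-like effector protein, ran at 71.5 to 109 CPM (median 87.0) in Treg and 1.36 to 7.68 CPM (median 3.40) in Tconv (4.73 ± 0.16, adjusted p = 1.39e-11). Tnfrsf9, the costimulatory receptor 4-1BB, ran at 204 to 328 CPM (median 256) in Treg and 26.3 to 58.5 CPM (median 39.8) in Tconv (2.74 ± 0.07, adjusted p = 6.93e-13). The suppressive cytokine Il10 stayed low, at 1.94 to 3.90 CPM (median 2.70) in Treg and 0 to 0.709 CPM (median 0.352) in Tconv, but its libraries did not overlap (3.55 ± 0.53, adjusted p = 7.55e-05). Transcription factors of this state also differed: Maf by 2.56 ± 0.1, Irf4 by 2.65 ± 0.12, Rora by 2.42 ± 0.09 and Prdm1 by 2.08 ± 0.11. Icos, a costimulatory receptor related to CD28, ran at 388 to 487 CPM (median 425) in Treg and 106 to 145 CPM (median 122) in Tconv (1.79 ± 0.07, adjusted p = 8.25e-11). Batf, which acts with Irf4, differed least (0.73 ± 0.07, adjusted p = 5.83e-07), and its libraries overlapped.

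Among 12 co-inhibitory receptors 7 were higher and 2 lower (median 1.40). Ctla4, which strips CD80 and CD86 from antigen-presenting cells, ran at 437 to 547 CPM (median 503) in Treg and 12.7 to 41 CPM (median 21.5) in Tconv, a 21.9-fold difference (4.45 ± 0.1, adjusted p = 3.88e-13). Tigit, a receptor for CD155, ran at 22.9 to 40.7 CPM (median 28.1) in Treg and 0.594 to 6.97 CPM (median 4.15) in Tconv (3.45 ± 0.14, adjusted p = 1.09e-10). Pdcd1, which encodes PD-1, ran at 58.4 to 123 CPM (median 96.2) in Treg and 14.7 to 44.7 CPM (median 23.7) in Tconv (1.88 ± 0.14, adjusted p = 8.39e-08). The lower pair was Lair1, a collagen receptor (-2.15 ± 0.17, adjusted p = 1.47e-07), and Vsir, which encodes VISTA (-0.41 ± 0.06, adjusted p = 6.32e-05). Btla and Cd96 gave -0.004 ± 0.07 and 0.06 ± 0.06 and did not pass. Of 12 genes for costimulatory TNF receptors and their adaptor, 8 were higher and 1 lower (median 1.05). The receptors for TNF itself went in opposite directions. Tnfrsf1b, which encodes TNFR2, ran at 431 to 723 CPM (median 558) in Treg and 85.5 to 146 CPM (median 120.0) in Tconv (2.24 ± 0.07, adjusted p = 5.8e-12). Tnfrsf1a, which encodes the death-domain receptor TNFR1, ran at 29.7 to 50.5 CPM (median 39.8) in Treg and 51.2 to 72.3 CPM (median 62.0) in Tconv (-0.70 ± 0.07, adjusted p = 2.26e-06). Neither pair of ranges overlapped, and in WT the differences were 2.24 ± 0.1, adjusted p = 6.48e-10 and -0.59 ± 0.1, adjusted p = 0.000446. Tnfrsf4, which encodes OX40, ran at 408 to 582 CPM (median 476) in Treg and 14.1 to 60.8 CPM (median 36.2) in Tconv (3.94 ± 0.08, adjusted p = 5.58e-14). Cd27 did not pass (0.01 ± 0.04, adjusted p = 0.905).

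The TGF-beta list had 8 of 15 genes higher and 5 lower (median 0.50). Genes for making active ligand were higher. Itgb8, whose integrin releases TGF-beta from its latent complex, ran at 31 to 48.5 CPM (median 39) in Treg and 0.212 to 3.21 CPM (median 2.06) in Tconv (4.64 ± 0.23, adjusted p = 6.29e-10), beside Lrrc32, the protease gene Furin (1.03 ± 0.07, adjusted p = 3.57e-08), Itgav (0.92 ± 0.1, adjusted p = 2.43e-06) and Tgfb1 itself (0.50 ± 0.09, adjusted p = 0.000273). Receptor genes moved apart. Tgfbr1 ran at 186 to 308 CPM (median 251) in Treg and 60.4 to 77.8 CPM (median 65.5) in Tconv (1.85 ± 0.08, adjusted p = 2.84e-10), whereas Tgfbr2 ran at 319 to 417 CPM (median 383) in Treg and 699 to 808 CPM (median 740.1) in Tconv (-1.004 ± 0.05, adjusted p = 6.78e-10) and Tgfbr3, the co-receptor betaglycan, at 19.2 to 33.6 CPM (median 31.9) in Treg and 172 to 211 CPM (median 187) in Tconv (-2.69 ± 0.1, adjusted p = 2.11e-11). No library of the other cell type reached into any of these ranges. Among signal transducers Smad4, which all branches share, was slightly lower (-0.22 ± 0.05, adjusted p = 0.00246), and Skil, an inhibitor of that signal, was higher (0.82 ± 0.06, adjusted p = 8.16e-08).

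Genes that produce adenosine and those that destroy cyclic AMP went opposite ways, so that the list as a whole had 5 genes higher and 5 lower of 11 tested. Entpd1, which encodes the ectonucleotidase CD39, ran at 44.5 to 74.8 CPM (median 63.6) in Treg and 0.764 to 4.12 CPM (median 1.67) in Tconv, a 34-fold difference (5.09 ± 0.17, adjusted p = 1.33e-11). Nt5e, which encodes CD73 and acts after CD39, ran at 303 to 463 CPM (median 417) in Treg and 27.7 to 106 CPM (median 59.7) in Tconv (2.82 ± 0.11, adjusted p = 7.4e-11). The adenosine receptor gene Adora2a, which raises cyclic AMP, was higher too (0.94 ± 0.09, adjusted p = 6.9e-07). Pde3b, a phosphodiesterase that hydrolyses cyclic AMP, ran at 3.73 to 16.2 CPM (median 11) in Treg and 251 to 324 CPM (median 263) in Tconv, or 26.3-fold lower in Treg (-4.72 ± 0.17, adjusted p = 2.89e-11). The other 3 phosphodiesterase genes listed were lower as well, with differences of -0.95 ± 0.12 for Pde7a, -0.81 ± 0.1 for Pde4d and -0.70 ± 0.07 for Pde4b. None of the 4 overlapped between cell types.

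Naive-state genes were lower in Treg: 11 of 14 passed as lower and none as higher, with a median difference of -0.99 over both genotypes and -0.98 in WT, where 9 passed. Tcf7, which encodes the transcription factor TCF-1, ran at 684 to 824 CPM (median 757) in Treg and 2241 to 2773 CPM (median 2509) in Tconv (-1.73 ± 0.06, adjusted p = 2.01e-11), and its relative Lef1 at 345 to 414 CPM (median 385) in Treg and 998 to 1170.3 CPM (median 1062) in Tconv (-1.47 ± 0.04, adjusted p = 3.64e-12). Ccr7, the receptor that admits T cells to the node, ran at 475 to 550.1 CPM (median 491) in Treg and 1049.8 to 1213 CPM (median 1125) in Tconv (-1.15 ± 0.05, adjusted p = 3.44e-10). Il7r, the receptor for a survival cytokine of resting T cells, ran at 337 to 739 CPM (median 451) in Treg and 804 to 1387 CPM (median 846) in Tconv (-1.01 ± 0.13, adjusted p = 2.49e-05). Dapl1, an abundant transcript of naive T cells, differed most, at 5.08 to 9.29 CPM (median 6.55) in Treg and 135 to 171 CPM (median 152) in Tconv (-4.43 ± 0.1, adjusted p = 3.32e-13). Satb1, a chromatin organiser, ran at 294 to 502 CPM (median 380.4) in Treg and 1052 to 1316 CPM (median 1125) in Tconv (-1.6 ± 0.05, adjusted p = 7.38e-12). Node retention was not uniform. Klf2, a transcription factor of quiescent T cells that drives S1pr1, ran at 417 to 602 CPM (median 452) in Treg and 418 to 529 CPM (median 455) in Tconv (0.01 ± 0.08, adjusted p = 0.92). Its ranges overlapped and it did not pass, while S1pr1, the exit receptor, was lower (-0.51 ± 0.06, adjusted p = 3.44e-06).

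The T cell receptor list also leaned lower, with 11 of 16 genes lower and none higher (median -0.45). Cd3d, Cd3e, Cd3g and Cd247, which encode the signalling chains of the receptor, differed by -0.54 to -0.49, and the co-receptor gene Cd4 by -0.82 ± 0.05, adjusted p = 2.63e-09. Cd4 ran at 530.4 to 639 CPM (median 584) in Treg and 952 to 1095 CPM (median 1009) in Tconv, so both sorted populations carried the CD4 T cell transcripts. A larger difference lay in Themis, a regulator of receptor signal strength, at 58.2 to 72.8 CPM (median 67.0) in Treg and 219.9 to 298 CPM (median 249) in Tconv (-1.93 ± 0.08, adjusted p = 1.9e-10). Fyn, Lcp2, Cd6 and Ptpn22 had differences between -0.07 and 0.07 and did not pass.

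All 18 mitosis genes were higher in Treg over both genotypes and in WT (median 2.31), and none overlapped between the cell types. Summed over the 18 genes the level was 187.9 to 360.5 CPM in Treg and 44.5 to 79.5 CPM in Tconv. Mki67, the proliferation marker Ki-67, ran at 32.2 to 72.0 CPM (median 60.4) in Treg and 4.84 to 13.3 CPM (median 8.47) in Tconv, a 6.95-fold difference (2.80 ± 0.16, adjusted p = 2.81e-09), and was 3.01 ± 0.23, adjusted p = 1.51e-07 in WT. Its WT Treg values were 32.2, 59.0 and 57.1 CPM in experiments A, B and C, so the lowest Treg library came from experiment A. Ccnb2, a mitotic cyclin, ran at 12.1 to 22.7 CPM (median 15.5) in Treg and 1.61 to 3.99 CPM (median 2.77) in Tconv (2.56 ± 0.18, adjusted p = 2.39e-08). Birc5, the chromosomal passenger survivin, ran at 12.3 to 21.2 CPM (median 14.5) in Treg and 2.09 to 4.49 CPM (median 2.72) in Tconv (2.35 ± 0.19, adjusted p = 1.48e-07), and Top2a, the topoisomerase that untangles sister chromosomes, at 33.3 to 69.1 CPM (median 51.1) in Treg and 9.34 to 16.5 CPM (median 14.7) in Tconv (1.89 ± 0.16, adjusted p = 2.06e-07). Aurka, a spindle-pole kinase, differed least (0.74 ± 0.16, adjusted p = 0.00149), and without both Tconv libraries with most genes its WT difference missed the threshold (0.69, adjusted p = 0.0502), as it did without the WT Treg library of experiment C (0.69, adjusted p = 0.0632). In the fit over all 42 libraries 8 of the 18 passed in WT.

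DNA replication genes were mixed: 13 of 18 were higher, 2 lower (median 0.57), and 10 were higher in WT (5 in the fit over all 42 libraries). Rrm2, the regulated subunit of ribonucleotide reductase, ran at 33.3 to 60.8 CPM (median 46.2) in Treg and 7.94 to 13.7 CPM (median 10.2) in Tconv (2.16 ± 0.13, adjusted p = 5.92e-09), and Tk1, thymidine kinase, at 13.8 to 33.8 CPM (median 23.3) in Treg and 0.997 to 4.98 CPM (median 3.38) in Tconv (3.06 ± 0.19, adjusted p = 8.37e-09). Uhrf1, which maintains DNA methylation at the replication fork, ran at 23.4 to 45.8 CPM (median 34.9) in Treg and 6.38 to 12.1 CPM (median 10.5) in Tconv (1.86 ± 0.15, adjusted p = 1.07e-07). The helicase genes differed little. Mcm6 was higher by 0.66 ± 0.07 and Mcm5 by 0.52 ± 0.09, while Mcm2 (-0.06 ± 0.08, adjusted p = 0.592), Mcm3 (0.16 ± 0.07, adjusted p = 0.0697) and the clamp gene Pcna (-0.02 ± 0.11, adjusted p = 0.92) did not pass. Mcm3 did pass with the experiment letter as a block (0.16, adjusted p = 0.0302) and without the TNFdARE Treg library of experiment B (0.20, adjusted p = 0.0339). Pcna ran at 84.1 to 125 CPM (median 95.0) in Treg and 85.9 to 121 CPM (median 102) in Tconv. Cdt1, a replication licensing factor, was lower (-0.35 ± 0.07, adjusted p = 0.000839). Exons of Tk1, Mcm7, Ccna2, Cdc20 and Ccne2 overlap those of an opposite-strand neighbour with at least 10% as many counts. Among 10 tested cell cycle inhibitors 6 were higher and 1 lower. Cdkn2c, which blocks CDK4 and CDK6, ran at 12.3 to 25.2 CPM (median 17) in Treg and 5.48 to 7.03 CPM (median 6.10) in Tconv (1.46 ± 0.11, adjusted p = 6.54e-08), and Cdkn2d of the same family was lower (-0.70 ± 0.09, adjusted p = 1.45e-05).

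**Figure D3:**
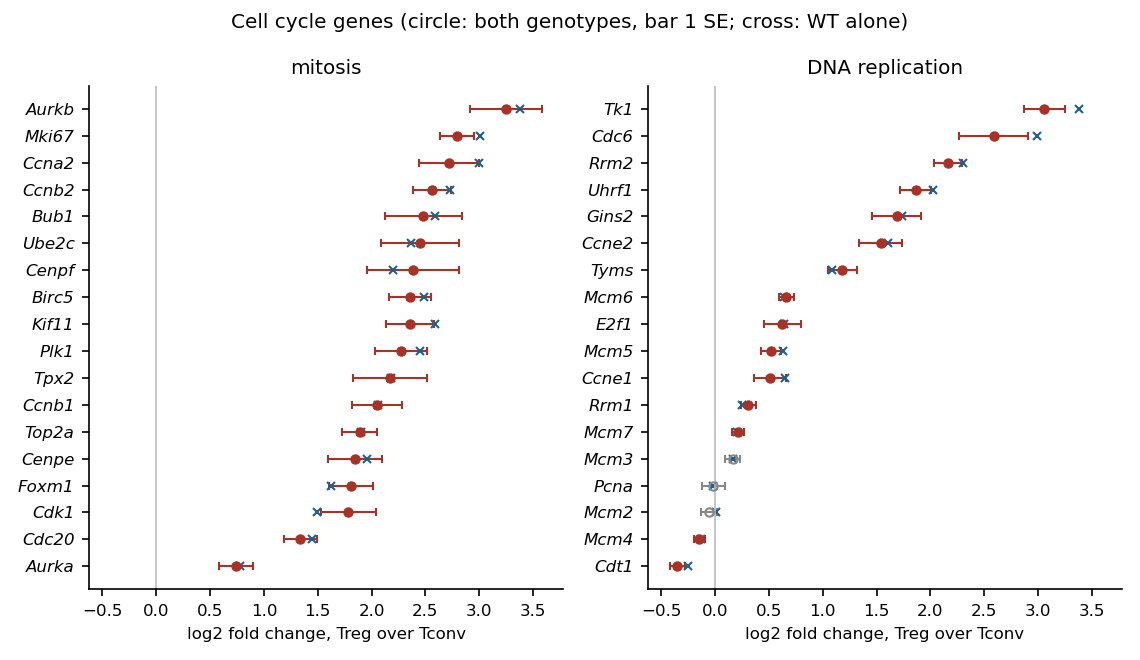
Log2 ratio of Treg to Tconv (x axis) for each mitosis gene (left) and DNA replication gene (right). Circles give both genotypes with 1 standard error, filled red where the gene passed and open grey where it did not, and crosses give WT alone. Every mitosis gene lies right of 0, from 0.74 for Aurka to 3.25 for Aurkb.

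Promoters of the mitosis genes, which moved together, were read from the RefSeq table (GRCm38.p6), 250 bases before to 50 after the start. Letters of 2 motifs known from genes of the G2 and M phases were searched on both strands: TTTGAA, the core of the cell cycle genes homology region (CHR), and CCAAT, the NF-Y core. In the stretches printed here 1 pair of matches overlaps, a CCAAT and its reverse complement ATTGG that share 2 bases in Ube2c. TTTGAA occurred in 10 of the 14 mitosis genes found in the table (71.4%), against 20.2% of all 27025 genes in the table and 1 of 15 DNA replication genes (6.67%). CCAAT occurred in 13 of the 14 (92.9%), in 41.1% of all genes and in 9 of the 15 replication genes (60%). A match describes letters and does not show binding. The 200 bases before the start are given for 4 mitosis genes in which both motifs lie in that stretch and, for contrast, for the replication gene Mcm5, with matches in capitals. They were chosen after the matches were seen. The stretches are chr10:69352913-69353112 (- strand) for Cdk1, chr11:99024190-99024389 (- strand) for Top2a, chr2:164769729-164769928 (+ strand) for Ube2c, chr7:135716380-135716579 (- strand) for Mki67 and chr8:75109309-75109508 (+ strand) for Mcm5.
Cdk1: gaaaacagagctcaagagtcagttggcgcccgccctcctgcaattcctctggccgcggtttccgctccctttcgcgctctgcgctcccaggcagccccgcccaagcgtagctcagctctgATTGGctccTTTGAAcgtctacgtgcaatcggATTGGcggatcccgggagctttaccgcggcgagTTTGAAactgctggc
Top2a: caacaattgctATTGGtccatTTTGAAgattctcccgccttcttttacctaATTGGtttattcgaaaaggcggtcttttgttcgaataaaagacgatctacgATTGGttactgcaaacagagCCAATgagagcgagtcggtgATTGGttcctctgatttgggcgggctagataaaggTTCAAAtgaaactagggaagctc
Ube2c: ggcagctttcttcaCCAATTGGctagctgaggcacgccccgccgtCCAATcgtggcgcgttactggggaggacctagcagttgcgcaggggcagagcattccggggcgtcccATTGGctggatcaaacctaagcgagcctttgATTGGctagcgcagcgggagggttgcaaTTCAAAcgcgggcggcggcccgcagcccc
Mki67: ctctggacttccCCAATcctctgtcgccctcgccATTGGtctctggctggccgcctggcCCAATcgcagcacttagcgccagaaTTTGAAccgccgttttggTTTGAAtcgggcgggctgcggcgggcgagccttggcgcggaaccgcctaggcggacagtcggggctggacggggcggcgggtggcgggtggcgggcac
Mcm5: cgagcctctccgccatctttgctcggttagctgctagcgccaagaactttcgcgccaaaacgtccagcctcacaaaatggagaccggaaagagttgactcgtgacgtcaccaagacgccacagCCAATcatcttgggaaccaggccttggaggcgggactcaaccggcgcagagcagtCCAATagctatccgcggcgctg

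Of the genes with printed promoters, Cdk1, the kinase of mitotic entry, ran at 4.4 to 10.4 CPM (median 6.64) in Treg and 1.01 to 2.96 CPM (median 1.96) in Tconv (1.78 ± 0.26, adjusted p = 5.7e-05), and Ube2c, which marks mitotic cyclins for destruction, at 2.53 to 7.61 CPM (median 5.51) in Treg and 0.378 to 1.33 CPM (median 1.09) in Tconv (2.45 ± 0.36, adjusted p = 6.69e-05). In Cdk1 the TTTGAA letters began 71 and 15 bases before the start and in Ube2c the reverse complement TTCAAA began 29 bases before it. Mcm5 held CCAAT and no TTTGAA, and its level was 80.8 to 98.1 CPM (median 89.8) in Treg and 45.7 to 79.4 CPM (median 61.7) in Tconv. For all 3 genes the Treg range lay above the Tconv range.

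Trafficking receptors were mostly higher in Treg, with 10 of 16 higher and 4 lower (median 1.63). Gpr15, a receptor for homing to the large intestine and skin, ran at 11.8 to 86.9 CPM (median 47.5) in Treg and 0.540 to 8.4 CPM (median 3.35) in Tconv (4.05 ± 0.14, adjusted p = 1.36e-11). Ccr6, the receptor for CCL20, ran at 65.2 to 254 CPM (median 146) in Treg and 5.05 to 25.9 CPM (median 14) in Tconv (3.38 ± 0.1, adjusted p = 1.98e-12). Exons of Gpr15 overlap those of Cpox on the opposite strand. Ccr2, for inflammatory monocyte chemokines, ran at 50.2 to 86.2 CPM (median 73.8) in Treg and 5.53 to 14.2 CPM (median 6.34) in Tconv (3.20 ± 0.18, adjusted p = 3.2e-09), and Ccr8 at 55.0 to 133 CPM (median 87.5) in Treg and 9.62 to 30.9 CPM (median 18.6) in Tconv (2.3 ± 0.09, adjusted p = 8.17e-11). Besides Ccr7 and S1pr1, Gpr183, an oxysterol receptor that positions cells in the node, was lower (-1.54 ± 0.14, adjusted p = 6.77e-07). Cxcr4, the receptor for CXCL12, did not pass (-0.1 ± 0.25, adjusted p = 0.775). Of 12 integrin genes 6 were higher and 1 lower. Itgb1 ran at 385 to 581 CPM (median 475) in Treg and 151 to 176 CPM (median 168) in Tconv (1.52 ± 0.06, adjusted p = 5.46e-11), and Itgb3 at 36.0 to 77.8 CPM (median 56.9) in Treg and 121 to 194 CPM (median 157) in Tconv (-1.51 ± 0.06, adjusted p = 9.49e-11). The leukocyte integrins Itga4, Itgb2 and Itgb7 had differences between -0.03 and -0.01 and did not pass.

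Helper cytokine genes were sparse. Of 18 listed 11 could be tested, 6 higher and 3 lower. Tnf, the gene altered in TNFdARE mice, ran at 58.5 to 117 CPM (median 89.1) in Treg and 24.4 to 72.0 CPM (median 54.2) in Tconv (0.78 ± 0.18, adjusted p = 0.00234). Its libraries overlapped, and in WT (0.85, adjusted p = 0.0171) the call was lost without the Treg library of experiment A or of B (adjusted p = 0.0625 and 0.101). Lta, its neighbour, which encodes lymphotoxin alpha, ran at 139 to 205 CPM (median 186) in Treg and 43.3 to 61.4 CPM (median 56.6) in Tconv with no overlap (1.72 ± 0.08, adjusted p = 3.5e-10), while Ltb gave 0.01 ± 0.06, adjusted p = 0.938. Tnfsf11, which encodes RANKL, the osteoclast differentiation factor, was higher (1.44 ± 0.07, adjusted p = 1.03e-09). Cd40lg, the helper signal to B cells, ran at 16 to 41.1 CPM (median 26.3) in Treg and 132 to 205 CPM (median 165) in Tconv (-2.66 ± 0.09, adjusted p = 1.9e-11). Il21, a follicular helper cytokine, had 1.66 to 3.5 CPM (median 2.27) in Tconv and at most 0.259 in any Treg library, close to the level of 3 counts (0.121 to 0.164 CPM). Il17a had no count in any of the 12 libraries, which allows up to 3 counts in each, counting error only. Of the lineage factors, Gata3 was higher (1.01 ± 0.11, adjusted p = 3.94e-06). In the follicular list 7 of 11 tested genes were higher and 2 lower. Cxcr5, the follicle-homing receptor, differed by 1.47 ± 0.1, adjusted p = 3.41e-08, with exons that overlap those of Bcl9l on the opposite strand. Bcl6, the transcription factor that defines follicular helper cells, did not pass (0.03 ± 0.09, adjusted p = 0.824).

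NF-kB pathway genes were higher in 12 of 16 cases and lower in none (median 0.47), and in 9 within WT. Rel, the subunit that Treg development requires, ran at 108 to 145 CPM (median 129.7) in Treg and 39.1 to 62.0 CPM (median 53.5) in Tconv (1.32 ± 0.08, adjusted p = 7.68e-09), Nfkbiz at 148 to 283 CPM (median 207) in Treg and 61.7 to 93.9 CPM (median 66.2) in Tconv (1.59 ± 0.12, adjusted p = 4.54e-08) and the adaptor Traf1 at 363 to 451 CPM (median 381) in Treg and 169.5 to 203 CPM (median 186) in Tconv (1.09 ± 0.07, adjusted p = 6.15e-09). Bcl3, a nuclear partner of these subunits, differed by 1.06 ± 0.07, adjusted p = 1.45e-08. Rela did not pass (-0.01 ± 0.07, adjusted p = 0.914). Only 5 of the 12 showed no overlap between cell types. In the activation-induced list 10 of 12 were higher and none lower (8 without both Tconv libraries with most genes). Nr4a1, an immediate early gene of receptor signalling, ran at 131 to 277 CPM (median 174) in Treg and 70.5 to 110.5 CPM (median 80.7) in Tconv (1.11 ± 0.14, adjusted p = 1.77e-05), while Egr1, another, gave -0.09 ± 0.11, adjusted p = 0.567. Nr4a2 ran at 4.53 to 10.9 CPM (median 7.89) in Treg and 0.659 to 2.42 CPM (median 1.40) in Tconv (2.44 ± 0.29, adjusted p = 8.8e-06). Irf8, a transcription factor induced by receptor signals, ran at 31.1 to 43.2 CPM (median 39) in Treg and 7.38 to 13 CPM (median 9.57) in Tconv (1.93 ± 0.13, adjusted p = 1.46e-08), and Ikzf3, which encodes Aiolos, at 111 to 178 CPM (median 142) in Treg and 46.4 to 76.4 CPM (median 53.2) in Tconv (1.33 ± 0.1, adjusted p = 5.08e-08). All of these but Egr1 had Treg libraries above every Tconv library. In the Bcl2 family 7 of 12 were higher and none lower. Anti-apoptotic Bcl2l1 ran at 74.6 to 98.7 CPM (median 83.9) in Treg and 23.2 to 32 CPM (median 29.4) in Tconv (1.61 ± 0.09, adjusted p = 2.57e-09), and the pro-apoptotic gene Pmaip1, which encodes Noxa, at 18.5 to 55.8 CPM (median 31.3) in Treg and 1.20 to 10.6 CPM (median 4.59) in Tconv (3.04 ± 0.17, adjusted p = 2.72e-09). Members with opposite functions were thus higher together.

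Metabolic and interferon lists had genes on both sides. Over all tested genes 22.1% were higher and 21.2% lower. The higher counts of these lists over both genotypes did not exceed the higher share, while their lower counts exceeded the lower share. In WT the interferon list, with 2 of 16 lower, did not exceed the lower share of 14.7%. Glycolysis had 3 of 15 genes higher and 6 lower. Slc2a3, a glucose transporter, was higher (1.6 ± 0.07, adjusted p = 1.74e-10), and the enzyme genes Aldoa (-0.73 ± 0.05, adjusted p = 4.51e-08) and Ldha (-0.26 ± 0.05, adjusted p = 0.000365) were lower. The enzyme genes did not all go that way. In a fit that added the mesenteric node libraries Hk2 was higher in joint-node Treg (1.99 ± 0.47, adjusted p = 0.00191). Its joint-node levels there were 2.406 to 4.388 CPM in Treg and 0.1955 to 2.679 CPM in Tconv. Cholesterol synthesis had 2 of 17 higher and 6 lower, and 2 and 4 without both Tconv libraries with most genes. Mvk, which encodes mevalonate kinase, ran at 4.98 to 6.35 CPM (median 5.64) in Treg and 7.49 to 11.2 CPM (median 8.99) in Tconv (-0.73 ± 0.14, adjusted p = 0.000562), with no overlap. Of 16 interferon-induced genes 3 were higher and 7 lower, and in WT 4 were higher and 2 lower. In the fit over all 42 libraries 1 of those 7 and none of the 6 lower cholesterol genes passed. Ifit1, an inhibitor of viral RNA translation, ran at 13.3 to 108 CPM (median 47.1) in Treg and 26.1 to 135 CPM (median 63.0) in Tconv, so its ranges overlapped over most of their length although it passed (-0.58 ± 0.15, adjusted p = 0.00517). Isg20, an RNA exonuclease, had ranges that did not overlap (0.79 ± 0.07, adjusted p = 3.91e-07).

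The next genes come from the rule for the largest differences, which took genes with a mean log2 CPM of at least 3. Pdlim4, a PDZ and LIM domain adaptor of the actin cytoskeleton, ran at 0.444 to 2.12 CPM (median 1.07) in Treg and 70.1 to 102 CPM (median 88.2) in Tconv, or 78.2-fold lower in Treg (-6.29 ± 0.20, adjusted p = 5.8e-12). Ggt5, which cleaves glutathione conjugates such as leukotriene C4, ran at 0.696 to 2.33 CPM (median 1.45) in Treg and 61.1 to 75.5 CPM (median 68.9) in Tconv (-5.48 ± 0.17, adjusted p = 5.57e-12). Atp8b4, a P4-type ATPase, ran at 1.34 to 2.75 CPM (median 1.81) in Treg and 44.8 to 80.0 CPM (median 58.6) in Tconv (-4.96 ± 0.13, adjusted p = 1.03e-12), and Slc16a5, of the monocarboxylate transporter family, at 4.94 to 7.64 CPM (median 5.80) in Treg and 108 to 134 CPM (median 126) in Tconv (-4.37 ± 0.1, adjusted p = 3.88e-13). Receptors were among the lower genes. Il1rl2, the interleukin-36 receptor, was lower (-3.65 ± 0.21, adjusted p = 3.08e-09), opposite to its relative Il1rl1. Vipr1, a receptor for vasoactive intestinal peptide that signals through cyclic AMP, ran at 13.9 to 22.3 CPM (median 20.1) in Treg and 176 to 268 CPM (median 239) in Tconv (-3.60 ± 0.11, adjusted p = 3.64e-12). Tdrp, Hs3st3b1, Mctp2 and Arhgap29 were lower by 3.22 to 3.34 log2 units. On the higher side Dusp4, a phosphatase of MAP kinases, ran at 48.0 to 92.4 CPM (median 66.8) in Treg and 1.13 to 7.17 CPM (median 3.73) in Tconv (4.44 ± 0.12, adjusted p = 9.27e-13).

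Markers of other cells ranged from 0 to well-detected levels. For B cells 4 of 10 genes were higher in Treg and none lower of 6 tested. The defining marker Pax5 reached at most 0.0519 CPM in Treg and was not tested. In a fit that added the mesenteric node libraries Pax5 reached 1.07 CPM in joint-node Tconv (median 0.0694). It was lower in joint-node Treg there (-3.98 ± 1.42, adjusted p = 0.0319). Ebf1 and Ms4a1 reached 1.18 and 1.5 CPM in joint-node Tconv and 0.182 and 0.772 in Treg, and did not pass. Cd79b, a chain of the B cell receptor, ran at 14.4 to 23.9 CPM (median 17.9) in Treg and 0.162 to 1.37 CPM (median 0.928) in Tconv (4.44 ± 0.25, adjusted p = 2.39e-09). The B cell list summed to 797.6 to 1262 CPM in Treg and 756 to 844 in Tconv, nearly all of it Ighm reads. In the myeloid and dendritic list 1 of 11 was higher and 2 lower of 7 tested, with sums of 90.1 to 355 CPM in Treg and 18.1 to 65.8 in Tconv. Cd74, the invariant chain, made up most of it at 86.6 to 332 CPM (median 172) in Treg and 10.2 to 54.5 CPM (median 25.3) in Tconv (2.86 ± 0.11, adjusted p = 3.61e-11), while Flt3, a receptor of dendritic cell progenitors, ran at 0 to 0.136 CPM (median 0.0242) in Treg and 0.150 to 1.77 CPM (median 0.542) in Tconv, H2-Aa stayed at or below 2.58 CPM and S100a8 at 0 in all 12 libraries. The CD8 and NK list had 1 of 7 higher and 2 lower of 5 tested (39.5 to 79.4 CPM in Treg, 53.8 to 64.7 in Tconv). Klrd1 (CD94) ran at 0.0453 to 0.630 CPM (median 0.0942) in Treg and 11.7 to 26 CPM (median 17.4) in Tconv, and Nkg7 at 25.5 to 56.4 CPM (median 41.6) in Treg and 5.34 to 11 CPM (median 7.52) in Tconv (2.38 ± 0.08, adjusted p = 1.16e-11), with Ncr1 at 0 in all Treg libraries. Plasma cell genes summed to at most 9.34 CPM in any library (2 higher of 3 tested of 6) and erythroid genes to at most 4.67 CPM (none of 4 tested). Of 5 innate-like T cell genes 2 were tested: Tcrg-C1 was higher (3.44 ± 0.25, adjusted p = 3.93e-08) and Trdc lower (-0.58 ± 0.11, adjusted p = 0.000851), with list sums of 18.5 to 31.8 CPM in Treg and 12.1 to 16.8 in Tconv. In the stroma and vessel list 1 of 8 was lower and none higher of 3 tested, and Pecam1, which T cells also express, held nearly all of its 173 to 309.8 CPM. Without both Tconv libraries with most genes 2 stroma genes, Col1a1 and Col1a2, passed as higher. Sums of each of these lists except the erythroid one split by genotype in Treg without overlap. Myeloid and dendritic genes summed to 90.1 to 113.5 CPM in WT Treg and 247.6 to 355.3 in TNFdARE Treg, and to 18.05 to 23.78 and 48.53 to 65.77 in Tconv. CD8 and NK genes summed to 39.48 to 48.18 CPM in WT Treg and 76.49 to 79.36 in TNFdARE Treg, and B cell genes to 797.6 to 820.9 and 1081 to 1262. Plasma cell genes summed to 3.319 to 4.989 CPM in WT Treg and 6.167 to 9.336 in TNFdARE Treg. Innate-like T cell genes summed to 18.5 to 23.08 CPM in WT Treg and 24.97 to 31.78 in TNFdARE Treg. Stroma and vessel genes went the other way, at 223 to 256.1 CPM in WT Treg and 173.2 to 193 in TNFdARE Treg. The part of these transcripts in the results was not tested.

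The test of whether the cell type difference itself differed between genotypes passed for 66 genes: 10 (0.0681%) had a more positive difference in TNFdARE and 56 (0.381%) a more negative one. At an unadjusted p below 0.05 there were 1151. Summed markers of myeloid, CD8 and NK, B, plasma and innate-like T cells (values above) were higher in every TNFdARE than any WT Treg library. Those of stroma and vessel were lower in every TNFdARE than any WT Treg library. Nearly all of the B cell sum was Ighm, itself among the genes that passed here, and most of the myeloid sum was Cd74. Over both genotypes Pax5, Flt3 and Klrd1 were lower in Treg than in Tconv, and Cd79b and Nkg7 were higher (values above). The part of these markers in these calls was not tested. With the experiment letter as a block 136 genes passed. Leaving out the TNFdARE Tconv library of experiment B gave 59, leaving out the WT Tconv library of experiment C gave 87, and leaving out any 1 of the other 10 gave 30 to 43. In the fit over all 42 libraries 13 passed, all more negative, and the calls of Nrp1 and Pnkd named here were lost (adjusted p = 0.188 and 0.0909), as was that of Cldnd1. Of the 16 Treg core genes 9 passed as more negative in TNFdARE and none as more positive. For Foxp3 the Treg means were 1201 ± 65.2 CPM in TNFdARE and 1199.6 ± 103 in WT (SD, n = 3), while the Tconv means were 36.6 ± 5.6 and 7.06 ± 0.436. The Tconv libraries of experiments A, B and C held 37.9, 30.4 and 41.4 CPM in TNFdARE and 6.79, 6.83 and 7.57 in WT, with no overlap. The resulting difference of differences was -2.37 ± 0.15, adjusted p = 3.63e-06. Lrrc32 also had the larger Tconv mean in TNFdARE, with 6.77 ± 1.46 CPM in TNFdARE and 1.005 ± 0.472 in WT (-3.02 ± 0.28, adjusted p = 0.000153). So did Ctla4, with 35.7 ± 7.65 and 14.1 ± 1.76 (-1.57 ± 0.18, adjusted p = 0.000864), and Tigit, with 6.94 ± 0.0421 and 1.02 ± 0.406 (-2.29 ± 0.29, adjusted p = 0.00172). Nrp1, a semaphorin co-receptor on Treg, had larger means in TNFdARE in both cell types, at 659 ± 11.5 against 353 ± 12.3 CPM in Treg and 56.9 ± 3.93 against 13.2 ± 0.764 in Tconv (-1.21 ± 0.1, adjusted p = 6.5e-05). Tnfrsf4 followed that pattern, at 550.1 ± 28.3 against 417 ± 8.53 in Treg and 57.1 ± 3.84 against 17 ± 2.64 in Tconv (-1.35 ± 0.14, adjusted p = 0.000256). Gzmb, the cytotoxic protease granzyme B, had the smaller Treg mean in TNFdARE, at 13.4 ± 1.02 CPM in TNFdARE against 28.7 ± 2.13 in WT, and Tconv means of 2.50 ± 0.866 and 0.454 ± 0.359 (-3.60 ± 0.45, adjusted p = 0.0017).

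Summed over the 16 Treg core genes, Tconv libraries held 376 to 419 CPM in WT and 786 to 923 in TNFdARE, beside 8178 to 9570 in Treg. Whether Treg within the Tconv sort took part in this was not tested. Expressed as a share of the Treg level of the same genotype, the Tconv level of Foxp3 was 0.589% in WT and 3.04% in TNFdARE. That share was larger in TNFdARE for all 16 Treg core genes, with a median of 3.91% in WT and 8.24% in TNFdARE, and for 15 of 19 effector Treg genes (12.9% and 18.7%). It spread from 0.191% for Lrrc32 to 20.6% for Izumo1r in WT, and from 1.5% to 36.4% for the same genes in TNFdARE. On the positive side Pnkd had Treg means of 107 ± 15.8 CPM in TNFdARE and 28.6 ± 4.72 in WT beside Tconv means of 24.6 ± 2.18 and 18.2 ± 2.15 (1.47 ± 0.19, adjusted p = 0.0025). Cldnd1, a claudin-domain protein, had Treg means of 205 ± 12.1 and 92.3 ± 9.19 beside Tconv means of 56.7 ± 3.09 and 45.1 ± 0.816 (0.82 ± 0.12, adjusted p = 0.00461). Neither Mki67 (-0.43 ± 0.31, adjusted p = 0.829) nor Tnf (-0.16 ± 0.35, adjusted p = 0.967) passed.

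**Figure D4:**
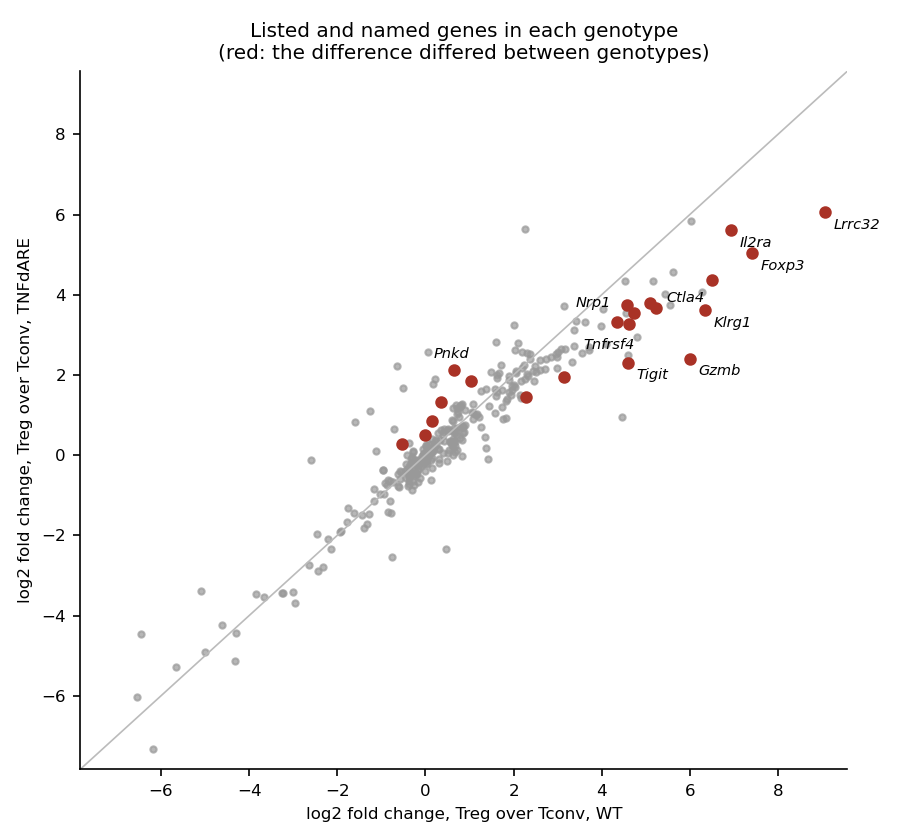
Log2 ratio of Treg to Tconv in WT (x axis) and in TNFdARE (y axis) for the tested genes of the lists and the named genes. Each point is a gene, the line marks equality, and red points passed the test of the difference between genotypes. Foxp3, at 7.41 in WT and 5.04 in TNFdARE, lies below the line with most other red points, and Pnkd lies above it.

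Against the mesenteric node, which drains the gut, the cell type difference differed for 233 of 17108 genes, 108 (0.631%) more positive in the joint nodes and 125 (0.731%) more negative. Here 10 mesenteric libraries, 5 per cell type and 2 of these from TNFdARE, joined the 12. The count was 422 with the experiment letter as a block and 15 with WT libraries alone. It was 138 without the TNFdARE mesenteric Treg library of experiment B and 21 in the fit over all 42 libraries. Myb, a transcription factor first known from blood progenitors, gave 2.08 ± 0.09 in the joint nodes and 0.18 ± 0.09 in the mesenteric node (difference 1.90, adjusted p = 3.02e-08). Its Treg levels were 76.2 to 92.1 CPM in the joint nodes and 37.7 to 56.9 CPM in the mesenteric node, against 16.6 to 22.1 CPM and 34.6 to 48.7 CPM in Tconv. Nkg7, a cytotoxic granule protein, gave 2.39 ± 0.09 in the joint nodes and 0.71 ± 0.1 in the mesenteric node (difference 1.68, adjusted p = 3.67e-07). Socs1 gave 1.63 ± 0.05 in the joint nodes and 0.66 ± 0.06 in the mesenteric node (difference 0.97, adjusted p = 3.67e-07), and Il2rb 4.16 ± 0.08 in the joint nodes and 3.23 ± 0.09 in the mesenteric node (difference 0.94, adjusted p = 8.06e-05). The difference in Cd200, a ligand that restrains myeloid cells, was 1.74 ± 0.08 in the joint nodes and 0.85 ± 0.09 in the mesenteric node (difference 0.89, adjusted p = 0.000235). Median Il2rb levels in the joint and mesenteric nodes were 1499 and 1534 CPM in Treg and 84.25 and 149.8 CPM in Tconv. Median Cd200 levels were 105.5 and 110.9 CPM in Treg and 30.43 and 49.05 CPM in Tconv. For both genes the sites thus differed more in Tconv than in Treg.

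More negative in the joint nodes were Mmd, with 0.88 ± 0.11 in the joint nodes and 2.58 ± 0.12 in the mesenteric node (difference -1.70, adjusted p = 2.39e-06), and Pard6g, a cell polarity protein, with 0.98 ± 0.08 in the joint nodes and 2.43 ± 0.09 in the mesenteric node (difference -1.45, adjusted p = 3.67e-07). Mmd ran at 44.4 to 69.0 CPM in joint-node Treg and 191 to 479 CPM in mesenteric Treg. Lztfl1 and Itm2b had their larger difference in the mesenteric node. Lztfl1, a regulator of ciliary transport, gave 0.06 ± 0.11 in the joint nodes and 1.45 ± 0.12 in the mesenteric node (difference -1.40, adjusted p = 3.46e-05) and Itm2b, a membrane protein of the BRICHOS family, 0.11 ± 0.05 in the joint nodes and 0.84 ± 0.06 in the mesenteric node (difference -0.73, adjusted p = 1.44e-05). Emb, a chaperone of monocarboxylate transporters, was lower in Treg at both sites, -1.53 ± 0.04 in the joint nodes and -0.79 ± 0.05 in the mesenteric node (difference -0.74, adjusted p = 1.33e-06). With WT libraries alone Cd200, Lztfl1, Itm2b and Emb no longer passed (adjusted p = 0.0689, 0.0881, 0.362 and 0.239), while Myb, Nkg7, Socs1, Il2rb, Mmd and Pard6g did.

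**Figure D5:**
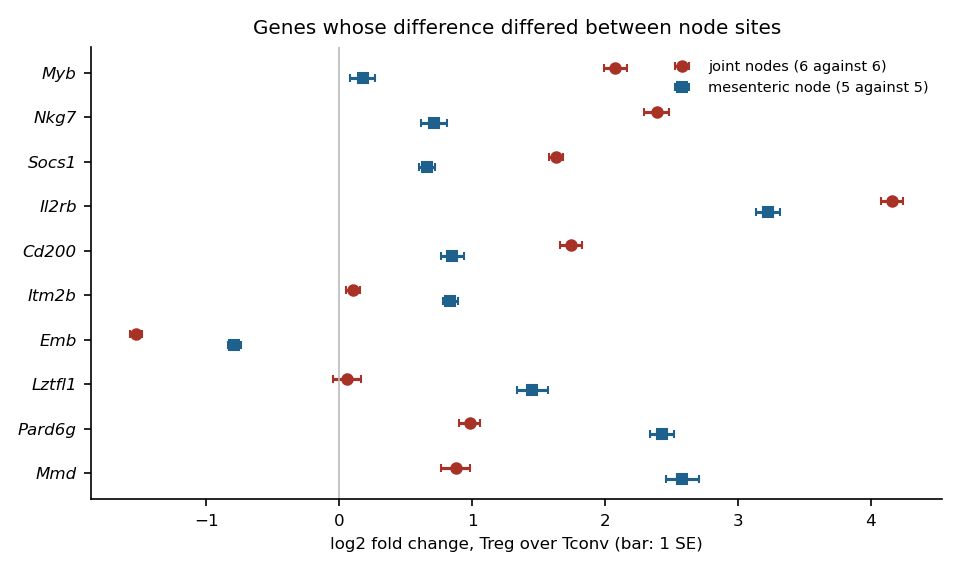
Log2 ratio of Treg to Tconv with 1 standard error (x axis) for the 10 named genes whose difference differed between node sites (y axis). Circles are the joint nodes and squares the mesenteric node. Myb lies at 2.08 in the joint nodes and 0.18 in the mesenteric node, and Mmd at 0.88 and 2.58.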

How the data were processed

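Bulk RNA-seq read counts per gene were analysed for the 12 joint-node libraries and, for the site contrast, 10 mesenteric libraries. Per the labels' protocols, RNA was extracted with RNeasy Micro kits and amplified from 100 pg or 2 ng with SMART-Seq v4 PLUS, which uses no molecular identifiers and does not mark strand. Which library had which input is not given in the sources used here. The tools named are Bowtie2 2.3.3.1 and cutadapt 1.15, and the build GRCm38, per the submitters' processing notes. The counting program and its settings are not given in the sources used here. The deposited counts are whole reads per gene for 46603 genes, of which 46005 had a symbol in the table, and the authors' FPKM values were not used. Overlaps with unstranded opposite genes came from GENCODE exons and concerned 25 listed genes.

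Counts were normalised with TMM factors, filtered with filterByExpr and tested with edgeR 4.0.16 (quasi-likelihood F test, R 4.3.3), one mean per cell type and genotype, with Benjamini-Hochberg adjustment over all genes tested. CPM use the normalised library size. The largest and smallest libraries set 3 counts at 0.121 and 0.164 CPM, and intervals and floors cover counting error only. Members of the 29 lists (347 genes) and the rule for named genes were chosen with earlier results of these data known. The rule took 5 fixed genes, up to 12 higher and 12 lower genes with the largest change, no overlap between libraries and a mean log2 CPM of at least 3, up to 4 genes per list and up to 5 per direction of each interaction. Other list members are named with their values.

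Some members of the lists are not reported here. Sample labels and the design text tie each letter to one of 3 independent experiments, so libraries with the same letter share an experiment. The main fit did not use the letter. With it as a block 7110 genes passed over both genotypes, 5443 in WT and 5064 in TNFdARE. Deviations of Treg and Tconv libraries with the same letter from their group means correlated at -0.0511 to 0.26, over 0.1 in 4 of 6 pairs. Alternatives were the experiment letter as a block, DESeq2 1.42.0, RLE factors, no filter, limma 3.58.1 voom with quality weights, all 42 libraries, only the groups compared, WT libraries of both sites, each library left out and, chosen after seeing the data, leaving out both Tconv libraries with most genes.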

Additional observations from a re-analysis of the deposited data

Results flagged for a closer look

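The Treg against Tconv difference differed between genotypes (interaction term, adjusted p below 0.05 over 14691 genes) for 21 genes that the lists or the naming rule hold. As the log2 difference in TNFdARE minus that in WT, the negative values were Foxp3 (-2.37), Nrp1 (-1.21), Lrrc32 (-3.02), Il2ra (-1.33), Tnfrsf4 (-1.35), Klrg1 (-2.74), Ctla4 (-1.57), Gzmb (-3.60), Tigit (-2.29), Izumo1r (-0.82), Maf (-1.20), Il2rb (-0.81), Ikzf2 (-2.14), Dusp4 (-1.31) and Cish (-1.04). Positive values were Pnkd (1.47), Cldnd1 (0.82), Cd82 (0.71), Smco4 (0.83), Ighm (0.53) and Mast4 (0.96). Of these 21 calls 6 held in every alternative run, those of Foxp3, Lrrc32, Tnfrsf4, Ctla4, Gzmb and Tigit.

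It differed between node sites (interaction term over 22 libraries and 17108 genes) for 23 genes of the naming rule. As the log2 difference in the joint nodes minus that in the mesenteric node, the positive values were Myb (1.90), Socs1 (0.97), Nkg7 (1.68), Il2rb (0.94), Cd200 (0.89), Bcl3 (0.81), Itgb1 (0.64), Tcrg-C1 (1.96), Tnfrsf4 (0.56), Lta (0.73), Cish (0.85), Lef1 (0.30), Il2ra (0.57), Irf8 (0.78), Egr2 (0.48) and Pnkd (0.57). The negative values were Pard6g (-1.45), Emb (-0.74), Ighm (-0.97), Mmd (-1.70), Itm2b (-0.73), Lztfl1 (-1.40) and Cd3d (-0.40). Of these 23 calls 6 held in every alternative run, those of Myb, Nkg7, Pard6g, Ighm, Mmd and Il2rb. Over the lists and the naming rule together 42 genes passed between sites, and 7 of these calls held in every alternative run. Not all of the 42 are given here. Groups of 3 libraries were not tested for single outlying values.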

How the results depend on the processing

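Over both genotypes 5573 to 6771 genes passed with 1 library left out, 3429 to 5013 in WT and 3251 to 3619 in TNFdARE. The fit over all 42 libraries gave 2980, 1582 and 1388. The test of the difference between genotypes passed for 136 genes with the experiment letter as a block, 185 by DESeq2, 224 with no filter, 13 over all 42 libraries and 30 to 87 with 1 library left out. The difference between node sites passed for 422 with the block, 450 by DESeq2, 697 with no filter, 21 over all 42, 15 with WT libraries only and 138 to 260 with 1 library left out. The causes of these shifts were not tested. Of 252 listed or named genes that passed over both genotypes, 194 passed in every alternative run. The block ended no call of a listed or named gene over both genotypes or in WT.

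Without the filter the median difference over all 36319 genes tested was -0.51 over both genotypes. In the fit over all 42 libraries it was -0.12 over 22243 genes, against 0.0019 over 14691 in the main fit. List medians moved less in that fit: Treg core 4.135 against 4.147, mitosis 2.292 against 2.314 and T cell receptor -0.46 against -0.45. With no filter 3283 genes were higher and 4220 lower. Without both Tconv libraries with most genes 6489 passed over both genotypes, 4999 in WT, 4117 in TNFdARE, 88 between genotypes and 218 between sites. Col1a1, at most 2.43 CPM in any library, changed from -0.03 over both genotypes to 2.56 and from -0.37 in WT to 3.66 in that fit. With 1 library left out it ran from -0.32 to 1.98 and from -0.95 to 3.66, the highest without the Tconv library of WT in experiment C. Depth limits genes near 3 counts per library, such as Il12a and Il21 in Treg.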

Other observations

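Of the 66 genes whose Treg against Tconv difference differed between genotypes, 45 lay outside the lists and the naming rule. The genes given here were chosen from these 45 after their values were seen. Whether their calls held in the alternative runs was not examined gene by gene. The ratios do not show whether Treg or Tconv levels differed between genotypes. Il1r2, the decoy receptor for interleukin-1, had a log2 ratio of Treg to Tconv of 5.55 ± 0.28 in WT and 3.11 ± 0.19 in TNFdARE (-2.45, adjusted p = 0.0076). Inflammatory caspase genes were among them: Casp1 had 2.24 ± 0.14 in WT and 1.09 ± 0.12 in TNFdARE (-1.16, adjusted p = 0.00945), and Casp4 had 2.98 ± 0.18 in WT and 1.65 ± 0.15 in TNFdARE (-1.33, adjusted p = 0.0174). Ecm1, a secreted matrix protein that T cells also make, had 2.87 ± 0.09 in WT and 1.95 ± 0.09 in TNFdARE (-0.92, adjusted p = 0.00237). Adam19, a sheddase, had 2.38 ± 0.13 in WT and 1.14 ± 0.12 in TNFdARE (-1.23, adjusted p = 0.0045). Cd83, an activation marker, had 4.86 ± 0.17 in WT and 3.56 ± 0.15 in TNFdARE (-1.30, adjusted p = 0.0118). On the positive side, Syngr2 had 0.998 ± 0.1 in WT and 1.71 ± 0.1 in TNFdARE (0.71, adjusted p = 0.0392) and Apobec1, a cytidine deaminase of RNA, had -0.18 ± 0.11 in WT and 0.58 ± 0.11 in TNFdARE (0.77, adjusted p = 0.047).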
